A study of Mus musculus with 8 samples.

Results

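The genes described here are 10 genes of ferritin, heme oxygenase and iron handling, named by symbol: Fth1, Ftl1, Hmox1, Tfrc, Slc40a1, Slc11a1, Slc11a2, Ncoa4, Aco1 and Ireb2. All 10 had a row in a table of 54134 genes, and all 10 were among the 14985 genes tested. The libraries came from mouse bone marrow adipocytes, labelled WT and obtained by keeping bone marrow stem cells in an adipogenic medium for 14 days. The 3 libraries labelled GC+GW9662 are, per the labels, of cells given dexamethasone, a synthetic glucocorticoid, at 1e-06 M together with GW9662, an inhibitor of the nuclear receptor PPARγ whose dose the labels do not give, for 24 hours. For the 3 libraries labelled GC the labels give dexamethasone alone at the same dose and time, and for the 2 libraries labelled Control they name differentiation and neither agent. RNA was sequenced after Smart-Seq2 amplification, which keeps no strand. Whether libraries of one group were grown as separate cultures is not in the labels, and the p-values measure a spread between libraries that may be technical. Levels are TPM, in which read counts are divided by gene length and scaled to the same total in every library.

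Cells keep their iron in ferritin, a shell built of heavy chains (Fth1) and light chains (Ftl1). Heme oxygenase 1 (Hmox1) opens the heme ring and frees its iron, transferrin receptor 1 (Tfrc) brings iron in, and ferroportin (Slc40a1) is the exporter. The iron regulatory proteins, encoded by Aco1 and Ireb2, bind hairpins called iron responsive elements in messenger RNAs when iron is short: a hairpin before the coding sequence holds back translation, and hairpins after the coding sequence of Tfrc protect the messenger from decay. Marrow macrophages are known for recycling heme iron from red cells, and differentiated adipocytes also make ferritin and Hmox1.

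The hairpins are shown because their place in a messenger goes with the kind of control described above. In the first annotated transcript of each gene (GENCODE M21, GRCm38), the sense strand was searched for an unpaired C, then 5 bases, the loop CAGTGN and 5 bases pairing with the first 5, with G-U pairs allowed. Such a site was found in 4 of the 10 genes so read. For the background every protein-coding transcript was read and a gene counted if any matched, which gave 294 of 21901 protein-coding genes (1.34%). These shares are therefore not like for like. Each sequence below is 30 bases, 5′ to 3′, with the 6-base loop in capitals.
Fth1, 5′ UTR: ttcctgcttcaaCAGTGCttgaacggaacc
Ftl1, 5′ UTR: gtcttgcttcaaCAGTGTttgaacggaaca
Slc40a1, 5′ UTR: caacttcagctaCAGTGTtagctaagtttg
Tfrc, 3′ UTR, site 1: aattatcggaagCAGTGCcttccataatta
Tfrc, 3′ UTR, site 2: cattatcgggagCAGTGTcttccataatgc
Tfrc, 3′ UTR, site 3: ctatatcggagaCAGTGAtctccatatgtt
Tfrc, 3′ UTR, site 4: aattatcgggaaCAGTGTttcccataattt
The Fth1 site lies at chr19:9982732-9982761 (+ strand), that of Ftl1 at chr7:45459778-45459807 (- strand) and that of Slc40a1 at chr1:45925464-45925493 (- strand), and the 4 Tfrc sites lie between the first at chr16:32631219-32631248 and the last at chr16:32631710-32631739 (+ strand). No match was found in the transcripts searched of Hmox1, Slc11a1, Slc11a2, Ncoa4, Aco1 and Ireb2. Only the first transcript of each was read, with a strict pattern. These genes may therefore carry such a hairpin in another transcript or in a form the pattern misses. A match is a stretch of letters and no measure of binding.

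Features of the whole series bear on every value below. Genes that glucocorticoids usually raise went against the label: Fkbp5 had 32.5 to 80.3 TPM in the libraries labelled GC, against 429 and 463 TPM in those labelled Control (adjusted p = 0.000142), and Tsc22d3 had 50.9 to 65.4 TPM in the GC libraries, against 543 and 572 TPM in the Control libraries (adjusted p = 8.7e-07). The GC+GW9662 libraries, also labelled as given dexamethasone, had 78.8 to 104 TPM of Fkbp5 and 401 to 455 TPM of Tsc22d3. Both genes were lower there than in the Control libraries (limma adjusted p = 0.00204 and 0.0326). Groups are therefore named here only as labelled, and every direction below is that of the libraries as labelled. Estimated depth was 17433086 to 18467786 reads in the GC+GW9662 libraries, 17681314 in GC 1, 25613291 and 24940924 in GC 2 and GC 3, and 25215717 and 26515062 in the Control libraries. Changes ran with gene length: from the shortest to the longest of 10 length classes, the median log2 change was 0.18 to -1.09 in GC against Control, 0.40 to -0.51 in GC+GW9662 against GC, 0.59 to -1.68 in GC+GW9662 against Control, and 0.20 to -0.81 in GC 1 minus the mean of GC 2 and GC 3. Length here is that of all annotated exons of a gene joined. For the genes described here it exceeded the length recovered from the TPM steps, most of all for Fth1. Length classes and values with the length trend removed rest on the joined length. Adipoq, an adipocyte hormone, had 246 to 261 TPM in the GC+GW9662 libraries, 2.49 to 4.96 TPM in the GC libraries and 167 to 173 TPM in the Control libraries, and Lep was at 0 in all 8. The 10 adipocyte markers summed to 1339 to 1504 TPM in the GC+GW9662 libraries, 321 to 339 TPM in the GC libraries and 1440 to 1459 TPM in the Control libraries. Most of the GC sum was Cebpa, at 268 to 302 TPM. Of 8 tested, 7 were lower and 0 higher in GC against Control, and 7 higher and 1 lower in GC+GW9662 against GC. In GC+GW9662 against Control 4 were higher and 2 lower, with mean Fabp4 at 706 against 301 TPM and mean Lpl at 92.8 against 621 TPM. The 15 macrophage markers summed to 24873 to 28929 TPM in the GC+GW9662 libraries and 9948 to 10441 TPM in the GC libraries. They summed to 31565 to 32493 TPM in the Control libraries, and none was at 0 in a whole group. Most of each sum was Lyz2, C1qa, C1qb and C1qc. The 9 stromal markers summed to 3400 to 3516 TPM in the GC+GW9662 libraries and 100 to 152 TPM in the GC libraries. Their sum was 5984 to 6251 TPM in the Control libraries. Most of the GC+GW9662 and Control sums was Acta2, at 3071 to 3161 TPM and at 4663 and 4870 TPM. By gene, 8 were lower in GC against Control, and 6 higher and 1 lower in GC+GW9662 against GC. All 9 were lower in GC+GW9662 against Control. The 8 neutrophil markers summed to 72.4 to 83.9 TPM in the GC+GW9662 libraries, 249 to 550 TPM in the GC libraries and 21.0 to 26.7 TPM in the Control libraries. Nearly all of each sum was S100a8, with 548, 248 and 346 TPM in GC 1, GC 2 and GC 3. S100a9 had at most 0.795 TPM in any library, and only 2 of the 8 were tested, so the sum reads as 1 gene. The part of these marker lists in the results below was not tested. The 9 erythroid markers, globins among them, summed to at most 2.62 TPM in any library. In RNA from a mixed culture, fewer cells of a type and less RNA per cell cannot be told apart.

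In GC against Control, 5 of the 10 genes were higher and 3 lower at a limma adjusted p under 0.05, and 2 did not pass. Of all tested genes, 55.3% passed in either direction, 16.2% as higher and 39.1% as lower. The median log2 change was 0.75 over the 10 genes and -0.38 over all tested genes. The storage genes Fth1 and Ftl1, the heme-degrading enzyme Hmox1 and the transporters Slc11a2 and Slc11a1 rose, and the exporter Slc40a1 fell 7.88-fold. In GC+GW9662 against GC, 1 gene was higher and 8 lower, against 28.3% and 33.5% of all tested genes (61.7% in either direction), and the medians were -1.46 for the 10 genes and -0.11 for all. In GC+GW9662 against Control, 1 gene was higher and 5 lower, against 14.1% and 48.6% of all tested genes (62.7% in either direction), and the medians were -0.70 and -0.49. Both comparisons with GC share its libraries, and the comparisons with Control share its 2 libraries, so their values are given side by side and are not independent.

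**Figure D1:**
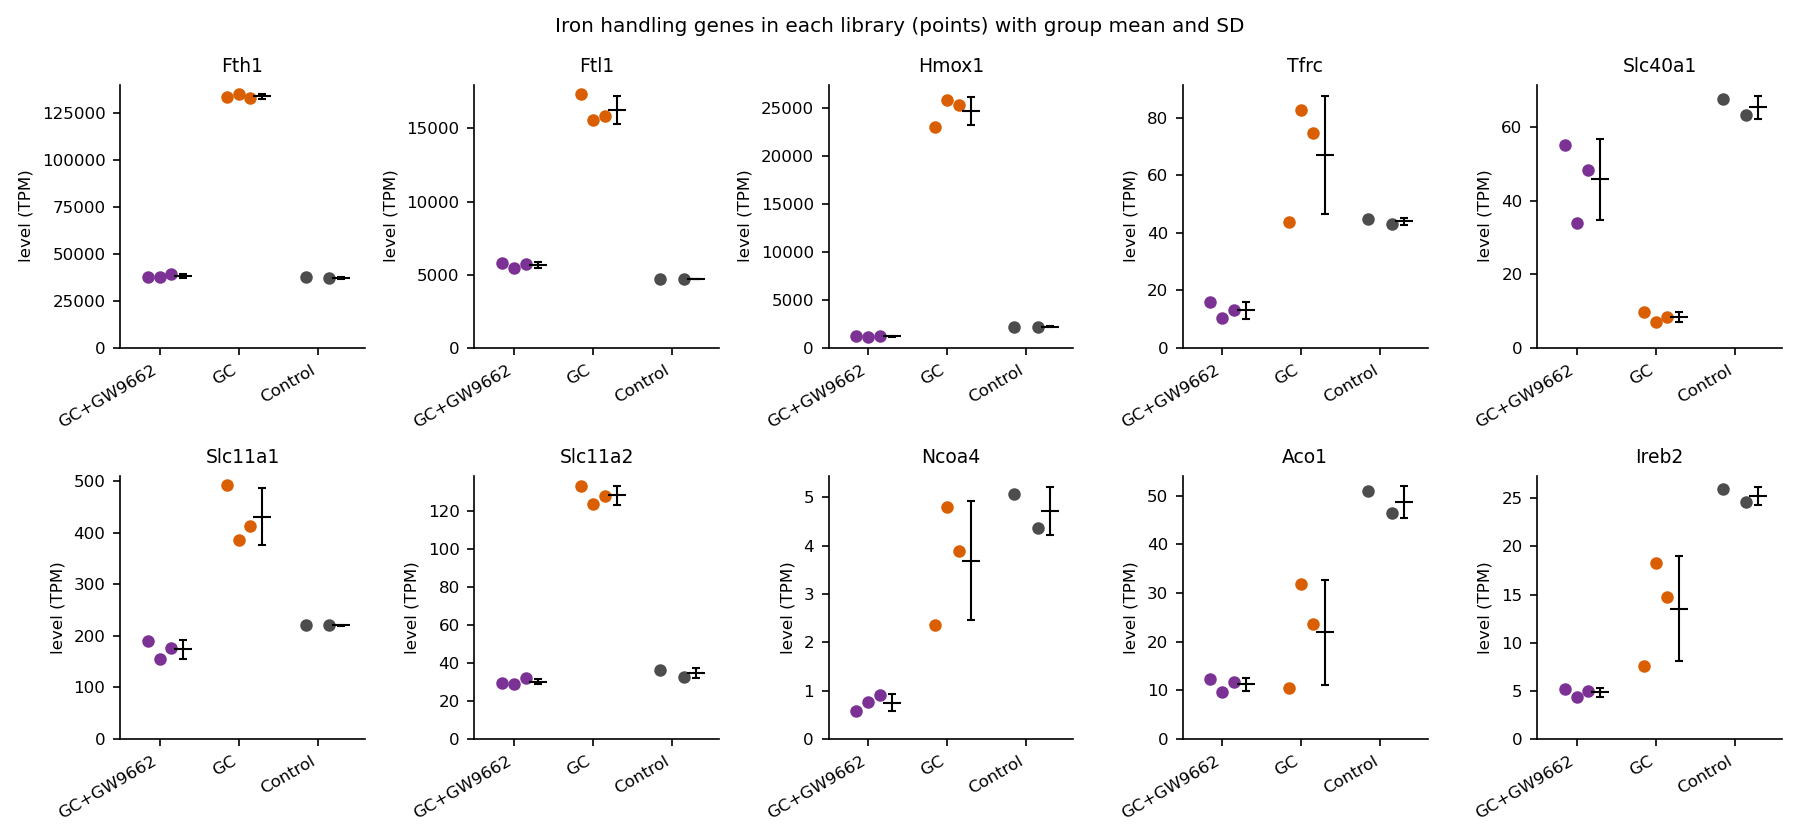
Level of each of the 10 genes in TPM (linear axis from 0) in the GC+GW9662, GC and Control libraries; points are libraries, and the black bar and whiskers are the group mean and SD (n = 3, 3 and 2). The GC libraries stand above both other groups for Fth1, Ftl1, Hmox1, Slc11a1 and Slc11a2 and below them for Slc40a1, and GC 1 lies below GC 2 and GC 3 for Tfrc, Ncoa4, Aco1 and Ireb2.

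Ferritin heavy chain, the subunit that oxidises iron as it enters the shell, was the most abundant row of all 8 libraries. Fth1 had 37495, 37501 and 39142 TPM in the GC+GW9662 libraries, 133727, 135376 and 132998 TPM in the GC libraries, and 37695 and 36852 TPM in the Control libraries. The GC values did not overlap those of either other group, while the GC+GW9662 and Control values overlapped. On the log2(TPM + 1) scale Fth1 rose by 1.85 ± 0.11 (SE) in GC against Control (3.60-fold, adjusted p = 4.99e-06) and fell by 1.82 ± 0.10 in GC+GW9662 against GC (adjusted p = 3.01e-06). The change in GC+GW9662 against Control was 0.03 ± 0.11 (adjusted p = 0.831). It became 0.55 with the length trend removed and 0.63 by voom on recovered reads, and passed in both. The first of these used a joined exon length of 3469 bases, where the recovered length was 866. The adjusted p ranged from 0.00274 to 1.0 over the alternatives.

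Ftl1, the light chain that helps the iron core form, followed the heavy chain. Ftl1 had 5768, 5423 and 5727 TPM in the GC+GW9662 libraries, 17377, 15594 and 15837 TPM in the GC libraries, and 4699 and 4670 TPM in the Control libraries. No library of one group reached the range of another. The change was 1.79 ± 0.10 in GC against Control (3.47-fold, adjusted p = 3.67e-06), -1.53 ± 0.09 in GC+GW9662 against GC (adjusted p = 4.8e-06) and 0.27 ± 0.10 in GC+GW9662 against Control (adjusted p = 0.0437). That last call rests near its threshold: 12 alternatives ended it, as did quantile normalization, which brought it to -0.01, and its adjusted p ran from 0.00256 to 0.972. Pseudogene copies of Fth1 held 0.929% to 1.55% of its TPM over the libraries, and those of Ftl1 0.681% to 0.978%; unstranded counting leaves reads from Gm22133 and Gm10252, which overlap Ftl1, inseparable from it.

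Together the 2 chains made up 4.37% ± 0.104 of all TPM in the GC+GW9662 libraries (SD, n = 3), 15.0% ± 0.127 in the GC libraries (n = 3) and 4.20% ± 0.062 in the Control libraries (n = 2). GC exceeded Control by 10.83 percentage points, and GC+GW9662 minus GC was -10.66 points. An exact two-sided permutation test gave p = 0.1 in both, the smallest these group sizes allow. Because TPM is a share, a rise of this size lowers the shares of other genes; rescaling to the total without Fth1 and Ftl1 moved the median log2 change of all tested genes in GC against Control from -0.383 to -0.251. The ratio of Fth1 to Ftl1 TPM, taken within a library, was 6.50 to 6.92 in the GC+GW9662 libraries, 7.70 to 8.68 in the GC libraries and 7.89 to 8.02 in the Control libraries. The GC+GW9662 ratios lay below all others (exact two-sided permutation p = 0.1 against each group, the smallest possible), and the GC and Control ratios overlapped.

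**Figure D2:**
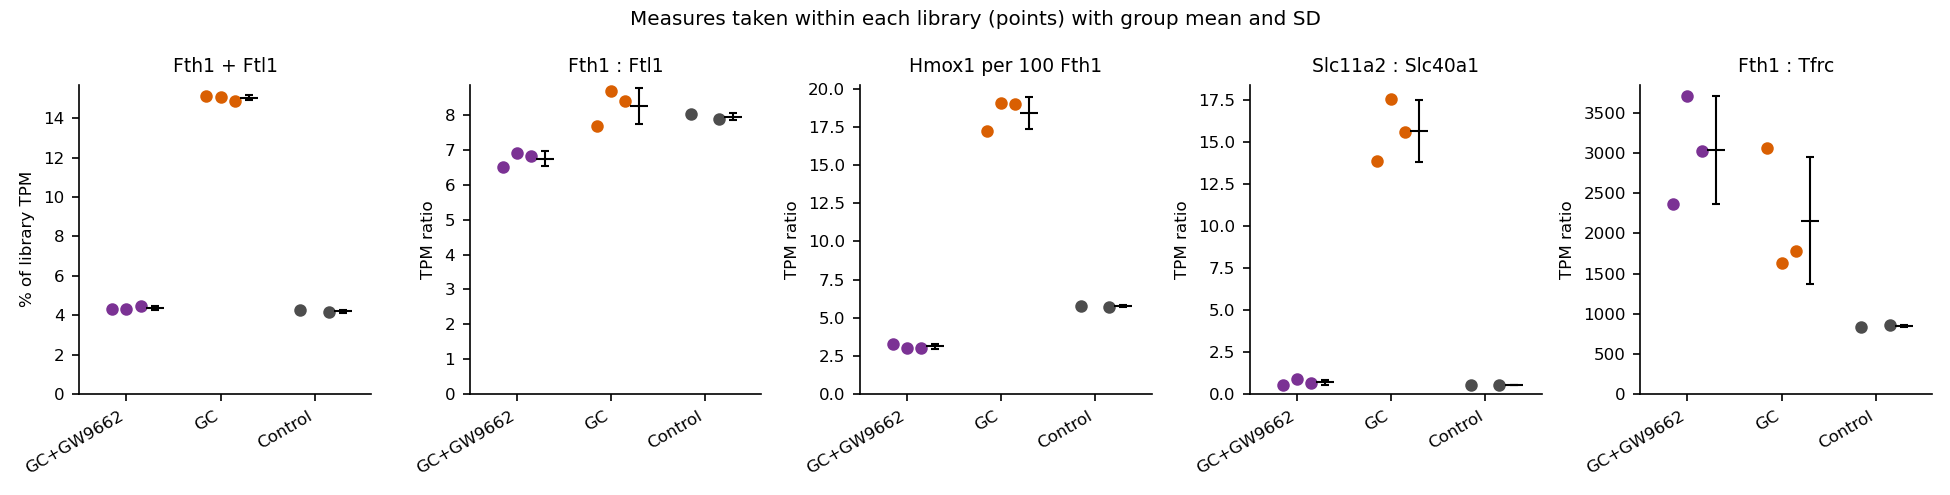
Measures taken within each library, in the GC+GW9662, GC and Control groups: the Fth1 plus Ftl1 share of TPM in percent and 4 ratios of TPM, all on linear axes from 0; points are libraries, and bars are group mean and SD (n = 3, 3 and 2). The ferritin share, Hmox1 per 100 Fth1 and the Slc11a2 to Slc40a1 ratio are highest in every GC library, with 17.2 to 19.0 Hmox1 per 100 Fth1.

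The largest change among the 10 genes was that of Hmox1, the inducible heme oxygenase, in both comparisons that involve GC. Hmox1 had 1226, 1136 and 1191 TPM in the GC+GW9662 libraries, 23008, 25788 and 25238 TPM in the GC libraries, and 2182 and 2110 TPM in the Control libraries. The 3 groups did not overlap, and the order was GC, Control, GC+GW9662 from high to low. By rank of level it stood 101st to 112th in the GC+GW9662 libraries, 2nd in all 3 GC libraries, and 46th and 51st in the Control libraries. It rose by 3.52 ± 0.10 in GC against Control (11.5-fold, adjusted p = 2.54e-07), where 76 of the 14985 tested genes had a larger increase. It fell by 4.38 ± 0.09 in GC+GW9662 against GC (20.8-fold, adjusted p = 4.74e-08), where 37 tested genes had a larger decrease. Against Control, the GC+GW9662 change was -0.86 ± 0.10 (adjusted p = 0.00118), but -0.13 with median-ratio scaling (adjusted p = 0.555) and -0.25 by voom on recovered reads (adjusted p = 0.0656), the other alternatives all passing.

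In both comparisons that involve GC, Hmox1 moved in the direction of ferritin but by more, and opposite to its constitutive relative. There were 3.03 to 3.27 Hmox1 TPM per 100 Fth1 TPM in the GC+GW9662 libraries, 17.2 to 19.0 in the GC libraries and 5.73 to 5.79 in the Control libraries. Hmox2, the constitutively expressed heme oxygenase, had 74.2 to 91.2 TPM in the GC+GW9662 libraries, 62.8 to 67.3 TPM in the GC libraries, and 117 and 129 TPM in the Control libraries. Hmox2 fell by 0.91 ± 0.13 in GC against Control (adjusted p = 0.000471) and rose by 0.38 ± 0.11 in GC+GW9662 against GC (adjusted p = 0.0199), opposite in sign to Hmox1 in both. The TPM ratio of Hmox1 to Hmox2 was 13.1 to 15.3 in the GC+GW9662 libraries, 366 to 388 in the GC libraries, and 16.9 and 18.1 in the Control libraries.

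The exporter went the other way from the storage genes. Slc40a1, the known iron exporter of mammalian cells, had 55.2, 33.8 and 48.4 TPM in the GC+GW9662 libraries, 9.63, 7.04 and 8.23 TPM in the GC libraries, and 67.6 and 63.2 TPM in the Control libraries. All GC values lay below all others, and the GC+GW9662 values lay below the Control values. It fell by 2.84 ± 0.22 in GC against Control (7.88-fold, adjusted p = 2.17e-05) and rose by 2.31 ± 0.20 in GC+GW9662 against GC (5.52-fold, adjusted p = 3.64e-05), passing in all alternatives of both. The change in GC+GW9662 against Control was -0.53 ± 0.22 (adjusted p = 0.0652); it turned positive under 3 alternatives and passed without GC 1 and without GC+GW9662 1 (adjusted p = 0.0371 in both; range 0.0371 to 0.814). Slc40a1 is known to be high in macrophages, and of 15 macrophage markers 12 were lower and 2 higher in GC against Control, 11 higher and 1 lower in GC+GW9662 against GC, and 8 lower and 1 higher in GC+GW9662 against Control. Their part in the Slc40a1 result was not tested.

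Slc11a2, which carries ferrous iron out of the endosome into the cytosol, moved opposite to the exporter. Slc11a2 had 29.5, 29.3 and 31.9 TPM in the GC+GW9662 libraries, 133, 124 and 128 TPM in the GC libraries, and 36.6 and 32.8 TPM in the Control libraries. The 3 groups did not overlap. It rose by 1.86 ± 0.11 in GC against Control (3.70-fold, adjusted p = 6e-06) and fell by 2.05 ± 0.10 in GC+GW9662 against GC (adjusted p = 2.12e-06), and the change in GC+GW9662 against Control was -0.19 ± 0.11 (adjusted p = 0.169, range 0.00794 to 0.586), turning positive under 4 alternatives; the positive change passed at 0.52 with median-ratio scaling, 0.49 with quantile normalization and 0.95 with the length trend removed (adjusted p = 0.0302, 0.00794 and 0.00804). Gm5475 overlaps Slc11a2, and reads of the overlap cannot be told apart. The TPM ratio of Slc11a2 to Slc40a1 was 0.535 to 0.867 in the GC+GW9662 libraries, 13.9 to 17.6 in the GC libraries, and 0.519 and 0.541 in the Control libraries.

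The related transporter Slc11a1, which moves metal ions across the phagosome membrane of macrophages, had 190, 155 and 176 TPM in the GC+GW9662 libraries, 493, 386 and 413 TPM in the GC libraries, and 220 TPM in both Control libraries. The groups did not overlap. It rose by 0.96 ± 0.14 in GC against Control (1.96-fold, adjusted p = 0.000547) and fell by 1.30 ± 0.12 in GC+GW9662 against GC (adjusted p = 5.92e-05). The summed markers of macrophages, the cells in which this transporter is best known, were lower in the GC libraries, and Slc11a1 was not among the 15 markers. In GC against Control 12 of the 15 were lower, and 2, Cd68 and Cd74, were higher. Cd68 had 516 to 647 TPM in the GC+GW9662 libraries, 2226 to 3028 TPM in the GC libraries, and 956 and 1001 TPM in the Control libraries. The part of these markers in the Slc11a1 result was not tested. Set against Control, GC+GW9662 gave a change of -0.35 ± 0.14 (adjusted p = 0.055), which passed under 6 alternatives and turned positive under 3.

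Tfrc, the receptor for transferrin-bound iron, had 15.8, 10.1 and 12.9 TPM in the GC+GW9662 libraries, 43.6, 82.7 and 74.8 TPM in the GC libraries, and 44.9 and 43.0 TPM in the Control libraries. The GC+GW9662 values lay below all others, whereas GC 1 fell between the Control values and GC 2 and GC 3 lay above them. In GC against Control the change was 0.55 ± 0.28 (adjusted p = 0.136), so no change passed. Without GC 1 it was 0.83 (adjusted p = 0.00459), and it also passed with median-ratio scaling at 1.10, quantile normalization at 1.04, the length trend removed at 1.21 and voom at 1.02; the adjusted p ranged from 0.000222 to 0.329. It fell by 2.25 ± 0.25 in GC+GW9662 against GC (5.17-fold, adjusted p = 0.000162) and by 1.71 ± 0.28 in GC+GW9662 against Control (3.39-fold, adjusted p = 0.00253), passing in all alternatives of both. The median of its length class was -0.48 in the first of these and -1.18 in the second. The number of Fth1 TPM for each Tfrc TPM was 2366 to 3711 in the GC+GW9662 libraries and 1637 to 3064 in the GC libraries. It was 840 and 858 in the Control libraries. GC+GW9662 and GC overlapped, and both lay above Control. This ratio sets a short messenger against a longer one, with recovered lengths of 866 and 4890 bases. In GC+GW9662 against Control the length-class medians, by joined exon length, were -0.45 for Fth1 and -1.18 for Tfrc. The shortest class was at 0.59. The part of length in the ratio was not tested.

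The iron sensors were lower in the libraries labelled GC+GW9662 and GC than in those labelled Control, with GC 1 apart from the other GC libraries. Aco1, the iron regulatory protein that doubles as cytosolic aconitase, had 12.4, 9.74 and 11.7 TPM in the GC+GW9662 libraries, 10.5, 31.8 and 23.5 TPM in the GC libraries, and 51.0 and 46.4 TPM in the Control libraries. Ireb2, the other iron regulatory protein, had 5.22, 4.36 and 4.97 TPM in the GC+GW9662 libraries, 7.63, 18.2 and 14.8 TPM in the GC libraries, and 25.9 and 24.6 TPM in the Control libraries. For both genes every GC value lay below every Control value; for Aco1, GC 1 fell among the GC+GW9662 values. In GC against Control, Aco1 fell by 1.24 ± 0.39 (adjusted p = 0.0255) and Ireb2 by 0.93 ± 0.31 (adjusted p = 0.0352). These are the least secure calls among the 10 genes in that comparison: 6 alternatives ended the call of Aco1, leaving out either Control library among them (adjusted p up to 0.119), and 15 ended that of Ireb2, as did removing the length trend, which brought it to 0.01 (adjusted p = 0.972, range 0.00962 to 0.972). The median change of their length classes was -0.62 for Aco1 and -1.09 for Ireb2.

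In GC+GW9662 against GC, Ireb2 fell by 1.24 ± 0.28 (adjusted p = 0.00586), and the change of Aco1 was -0.78 ± 0.35 (adjusted p = 0.0801), which passed at -1.22 without GC 1 (adjusted p = 0.000171, range 0.000171 to 0.234). Against Control, GC+GW9662 had Aco1 lower by 4.33-fold, a fall of 2.02 ± 0.39 on the log2 scale (adjusted p = 0.00346), and Ireb2 lower by 5.21-fold, a fall of 2.17 ± 0.31 (adjusted p = 0.00192). The length-class medians in that comparison were -0.98 and -1.68. Aco1 TPM per Ireb2 TPM was 2.23 to 2.37 in the GC+GW9662 libraries and 1.37 to 1.74 in the GC libraries. It was 1.89 and 1.96 in the Control libraries, and the groups did not overlap. The exact two-sided permutation p was 0.2 in GC against Control. It was 0.1 in GC+GW9662 against GC and against Control. The 2 genes differ in length class, and the part of length in this ratio was not tested.

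Ncoa4, the receptor that carries ferritin to lysosomes for breakdown, was the lowest of the 10 genes. Ncoa4 had 0.573, 0.773 and 0.917 TPM in the GC+GW9662 libraries, 2.37, 4.80 and 3.90 TPM in the GC libraries, and 5.07 and 4.37 TPM in the Control libraries, from an estimated 28, 40 and 48 reads, 112, 275 and 229 reads, and 254 and 235 reads. GC+GW9662 lay below both other groups, and GC and Control overlapped. The change was -0.32 ± 0.26 in GC against Control (adjusted p = 0.328), but it passed as higher, at 0.61, with the length trend removed (adjusted p = 0.0177, range 0.0177 to 0.829); it fell by 1.39 ± 0.23 in GC+GW9662 against GC (adjusted p = 0.00129) and by 1.71 ± 0.26 in GC+GW9662 against Control (adjusted p = 0.00209). A fold change of so low a gene is understated by the pseudocount of 1 TPM. Ncoa4 is uncertain, since a near-identical copy, Gm6768, held 153% to 342% of its TPM; with the copy added, the changes were -0.48, -1.64 and -2.12 in the same order (adjusted p = 0.263, 0.00215 and 0.00228). With the length trend removed, the last was -0.24 (adjusted p = 0.283), the only alternative to end it.

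**Figure D3:**
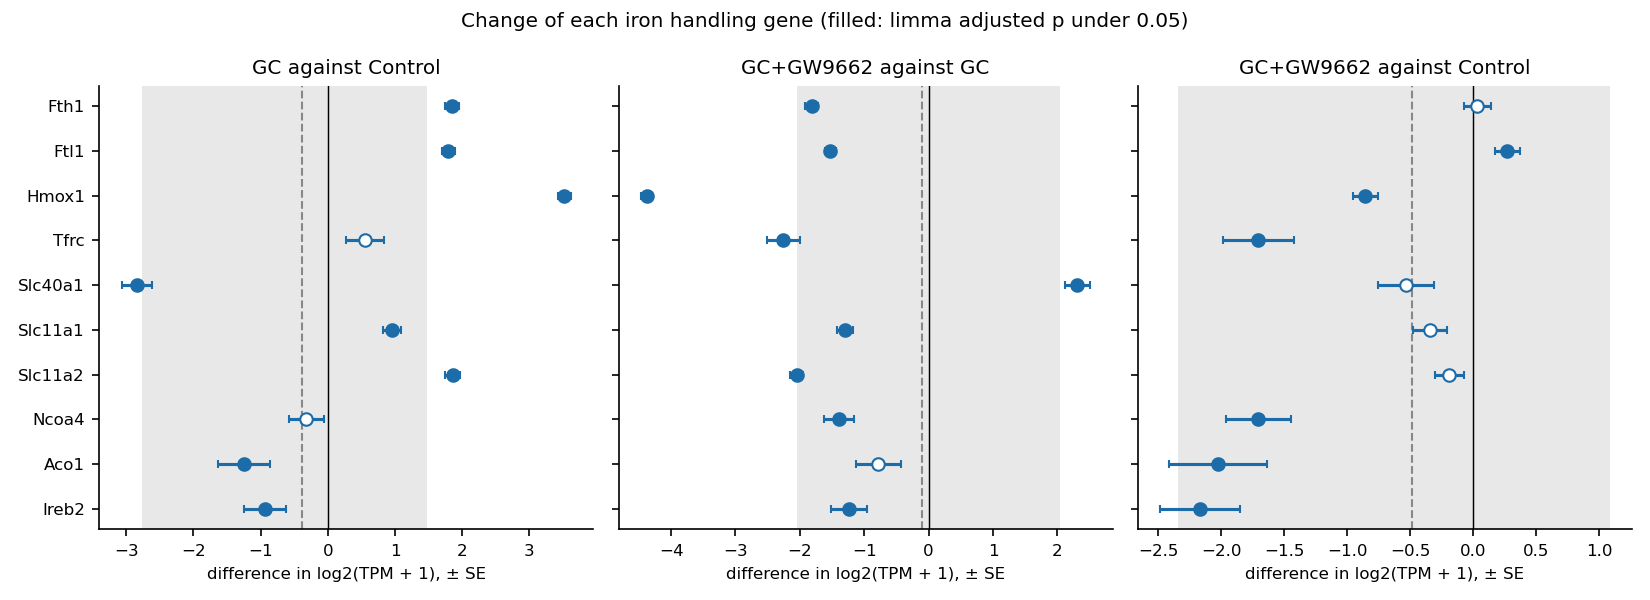
Change of each gene in log2(TPM + 1), with its SE, in GC against Control, GC+GW9662 against GC and GC+GW9662 against Control; filled points passed at a limma adjusted p under 0.05, the dashed line is the median of all 14985 tested genes and the grey band holds their 5th to 95th percentiles. Hmox1 lies outside the band at 3.52 and -4.38 in the first 2 panels, Slc40a1 at -2.84 and 2.31, and Slc11a2 at 1.86 and -2.05. Fth1 at 1.85 and Ftl1 at 1.79 also lie outside it in the first panel, and Tfrc at -2.25 in the second. All 10 points lie inside it in the last panel.

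Groups that did not overlap numbered 8 of 10 genes in GC against Control, 9 of 10 in GC+GW9662 against GC and 9 of 10 in GC+GW9662 against Control, against 71.9%, 64.1% and 79.0% of all tested genes. These shares lie close to the background in both comparisons with Control. The 3 genes with a 5′ hairpin did not share a direction: in GC against Control Fth1 and Ftl1 rose while Slc40a1 fell, and in GC+GW9662 against GC each had the opposite sign. Promoter windows of 300 bases (RefSeq, GRCm38.p6) were at hand for 7 of the 10 genes, in 11 windows; none was found for Hmox1, Slc40a1 and Slc11a2. On both strands, the antioxidant response element core TGACNNNGC was in the window of Ncoa4 and in 12.4% of 32851 windows. The letters AGAACA, one side of the glucocorticoid palindrome, were in the windows of Aco1, Ireb2 and Ncoa4 and in 19.0% of all windows. Neither the full palindrome of the glucocorticoid response element nor the PPAR direct repeat was found in the windows of these genes, which says only that those letters are not there.

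Of 79 other genes of iron and heme metabolism, 64 were tested. In GC against Control 16 were higher and 24 lower, beside 16.2% and 39.1% of all tested genes, with a median log2 change of -0.23. This balance turned over to 26 higher and 15 lower with the length trend removed, and to 25 higher and 16 lower with median-ratio scaling. Between GC+GW9662 and GC, 25 were higher and 22 lower, beside 28.3% and 33.5% of all tested genes, with a median of 0.17. Relative to Control, GC+GW9662 had 15 higher and 24 lower, beside 14.1% and 48.6% of all tested genes, with a median of -0.03. Without Control 1 these counts were 7 and 15, without Control 2 the higher count was 7, and with the length trend removed they were 31 and 10. The same background shares apply to the lists that follow. Hepcidin (Hamp and Hamp2), the hormone that degrades ferroportin, and mitochondrial ferritin (Ftmt) were at 0 in all 8 libraries.

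Among 10 tested genes of iron uptake and reduction, 8 were lower and none higher in GC against Control, beside 39.1% and 16.2% of all tested genes, with a median of -1.91. Between GC+GW9662 and GC, 7 were higher and 2 lower, with a median of 1.13, and against Control GC+GW9662 had 7 lower and none higher, with a median of -1.09. Steap1, of the family of metalloreductases, had 43.1 to 45.7 TPM in the GC+GW9662 libraries, 9.17 to 11.4 TPM in the GC libraries, and 33.2 and 36.9 TPM in the Control libraries; it fell by 1.68 ± 0.14 in GC against Control (adjusted p = 2.88e-05). Steap2, its relative, had 10.7 to 13.5 TPM in the GC+GW9662 libraries, 5.47 to 9.11 TPM in the GC libraries, and 36.1 and 37.8 TPM in the Control libraries. Both Steap genes were lowest in the GC libraries, where Slc11a2 was highest. Trf, transferrin itself, had 2.30 to 2.92 TPM in the GC+GW9662 libraries, 0.234 to 0.909 TPM in the GC libraries, and 6.90 and 7.77 TPM in the Control libraries, and fell by 2.43 ± 0.23 in GC against Control (adjusted p = 5.98e-05). Slc39a14, a zinc and iron importer, fell by 1.20 ± 0.19 in GC+GW9662 against Control (adjusted p = 0.00219); with the length trend removed it was 0.35 and did not pass (adjusted p = 0.0786).

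Of 5 tested genes of export and the hepcidin axis, 2 were higher and 2 lower in GC against Control. Hfe, the hemochromatosis protein, a partner of transferrin receptors, had 21.6 to 26.0 TPM in the GC+GW9662 libraries, 1.62 to 2.44 TPM in the GC libraries, and 29.4 and 29.9 TPM in the Control libraries. Like Slc40a1, it was low in all GC libraries, and it fell by 3.36 ± 0.18 in GC against Control (adjusted p = 3.24e-06) and rose by 3.09 ± 0.16 in GC+GW9662 against GC (adjusted p = 2.77e-06). Bmp2, a ligand of the pathway that drives hepcidin in liver, had 0.0508 to 0.335 TPM in the GC+GW9662 libraries, 9.91 to 36.8 TPM in the GC libraries, and 0.866 and 0.903 TPM in the Control libraries, and fell by 4.27 ± 0.43 in GC+GW9662 against GC (adjusted p = 8.51e-05). Among the iron chaperones, Pcbp2, which delivers iron to ferritin, had 351 to 366 TPM in the GC+GW9662 libraries, 773 to 1081 TPM in the GC libraries, and 359 and 363 TPM in the Control libraries. It rose with the ferritin chains, by 1.38 ± 0.14 in GC against Control (adjusted p = 9.3e-05). Pcbp1, of the same list, changed by 0.14 ± 0.08 there and did not pass (adjusted p = 0.179). It fell by 0.42 ± 0.07 in GC+GW9662 against GC (adjusted p = 0.00167). Of 6 tested genes of chaperones, sensing and ferritin copies, 3 were higher and 1 lower in GC against Control. The higher ones were Pcbp2 and the ferritin copies Ftl1-ps1 and Ftl2-ps. The Ftl1-ps1 row, a ferritin light chain copy, also rose, by 1.71 ± 0.16 (adjusted p = 6.62e-05), and shares sequence with Ftl1. Herc2, a ubiquitin ligase reported to act on Ncoa4, fell by 2.51 ± 0.40 in GC+GW9662 against Control (adjusted p = 0.00225).

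Genes of heme handling split. Of 9 tested genes of heme breakdown and transport, 3 were higher and 5 lower in GC against Control, and 6 were higher and 2 lower in GC+GW9662 against GC. Slc48a1, which brings heme out of the lysosome, had 725 to 779 TPM in the GC+GW9662 libraries, 1324 to 1455 TPM in the GC libraries, and 652 and 667 TPM in the Control libraries. Flvcr1, known as a heme exporter, had 17.1 to 19.5 TPM in the GC+GW9662 libraries, 69.9 to 91.1 TPM in the GC libraries, and 25.5 and 28.3 TPM in the Control libraries. Both rose in GC against Control, by 1.06 ± 0.09 (adjusted p = 3.48e-05) and 1.58 ± 0.15 (adjusted p = 6.48e-05), and fell in GC+GW9662 against GC. Abcg2, another transporter of porphyrins, had 16.4 to 19.1 TPM in the GC+GW9662 libraries, 3.12 to 3.76 TPM in the GC libraries, and 24.9 and 25.3 TPM in the Control libraries. Haptoglobin (Hp), which binds free hemoglobin, had 153 to 174 TPM in the GC+GW9662 libraries, 6.45 to 14.4 TPM in the GC libraries, and 138 and 149 TPM in the Control libraries. Abcg2 and Hp fell in GC against Control, by 2.57 ± 0.16 (adjusted p = 6.87e-06) and 3.80 ± 0.27 (adjusted p = 1.27e-05), beside the lower adipocyte and macrophage marker sums, whose part was not tested. Of 13 tested genes of heme synthesis, 2 were higher and 3 lower in GC against Control.

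In the mitochondrion, 18 genes of iron transport and iron-sulfur assembly were tested. In GC against Control 6 were higher and 5 lower. Slc25a28, the mitoferrin of non-erythroid cells, had 29.3 to 35.7 TPM in the GC+GW9662 libraries, 79.5 to 90.5 TPM in the GC libraries, and 23.6 and 24.2 TPM in the Control libraries; it rose by 1.80 ± 0.13 (adjusted p = 1.62e-05). Iscu, the scaffold of iron-sulfur assembly, had 206 to 218 TPM in the GC+GW9662 libraries, 86.4 to 90.7 TPM in the GC libraries, and 161 and 166 TPM in the Control libraries; it rose by 1.25 ± 0.08 in GC+GW9662 against GC (adjusted p = 9.06e-06). In GC+GW9662 against Control 11 were higher and 2 lower, beside 14.1% and 48.6% of all tested genes, among them Fdx1, a ferredoxin (1.11 ± 0.18, adjusted p = 0.00225), and Bola3, a factor of late iron-sulfur assembly (1.24 ± 0.22, adjusted p = 0.00282). Hscb, the co-chaperone of cluster transfer, rose by 1.23 ± 0.21, Glrx5, a glutaredoxin that carries clusters, by 0.89 ± 0.19, and Isca2, another cluster carrier, by 1.01 ± 0.22 (adjusted p = 0.00275, 0.00505 and 0.00556).

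None of 3 regulators of Hmox1 transcription passed in GC against Control. Bach1, a heme-binding repressor of Hmox1, had 7.69 to 9.25 TPM in the GC+GW9662 libraries, 25.7, 72.8 and 57.4 TPM in the GC libraries, and 37.8 and 35.9 TPM in the Control libraries. Nfe2l2, which encodes the activator NRF2, had 22.5 to 30.9 TPM in the GC+GW9662 libraries, 106, 351 and 278 TPM in the GC libraries, and 171 and 158 TPM in the Control libraries. For both, GC 1 lay below the Control libraries and GC 2 and GC 3 above them, and the adjusted p was 0.443 for Bach1, 0.472 for Nfe2l2 and 0.95 for Keap1, the inhibitor of NRF2. All 3 fell in GC+GW9662 against GC, Bach1 by 2.38 ± 0.33, Nfe2l2 by 2.94 ± 0.40 and Keap1 by 1.53 ± 0.26 (adjusted p = 0.000527, 0.000418 and 0.00153), and in GC+GW9662 against Control as well. Pparg, the receptor that GW9662 blocks, had 16.7 to 18.5 TPM in the GC+GW9662 libraries, 2.26 to 3.38 TPM in the GC libraries, and 6.29 and 8.84 TPM in the Control libraries.

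**Figure D4:**
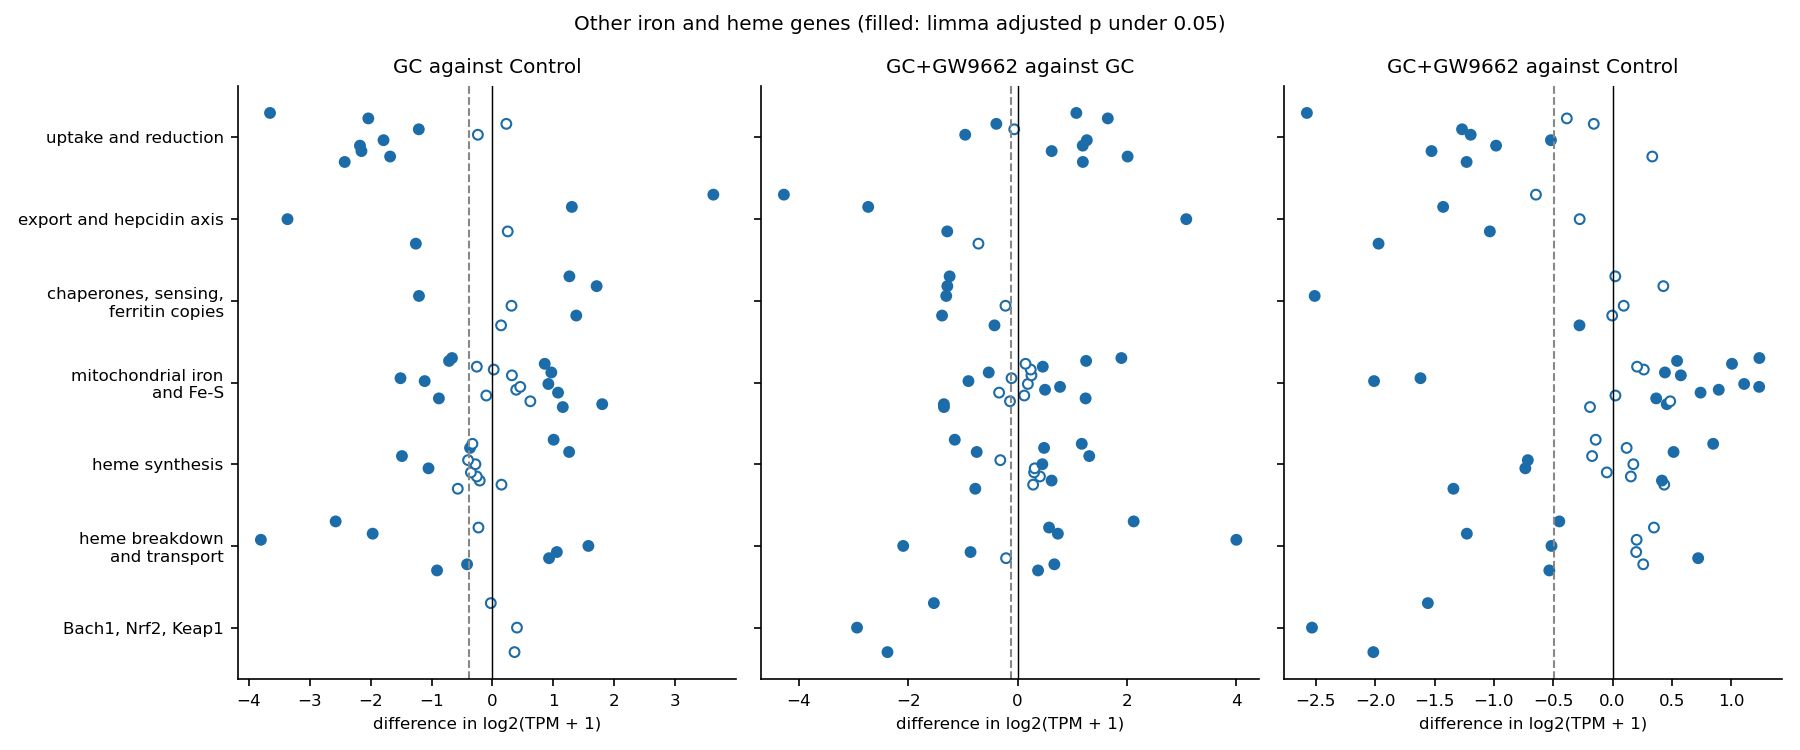
Change in log2(TPM + 1) of the 64 tested other iron and heme genes by list, in GC against Control, GC+GW9662 against GC and GC+GW9662 against Control; each point is a gene, filled where its limma adjusted p was under 0.05, and the dashed line is the median of all tested genes. In the uptake and reduction list 8 of 10 points lie left of 0 and pass in GC against Control, and 7 of 10 lie right of 0 and pass in GC+GW9662 against GC.

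As a description over the 8 libraries, which fall into 3 groups and share their scaling, genes were ranked by Pearson's r of their log2(TPM + 1) with 4 of the genes, with no test, among 8574 genes of at least 5 TPM on average. Closest to Fth1 were Dnajb9, Btg1 and Cnppd1 (r from 0.9991 to 0.9996), with mean levels of 87.8, 70.7 and 74.1 TPM in the GC+GW9662 libraries, 1546, 405 and 241 TPM in the GC libraries, and 81.7, 67.5 and 74.5 TPM in the Control libraries. Mt2, a metallothionein, was closest to Hmox1 (r = 0.9997), at means of 2141, 8418 and 2738 TPM in the GC+GW9662, GC and Control libraries, followed by Mmp3 and Slc3a2. The nearest to Slc40a1 were Fam213a, Sdc1 and Rspo2 (r from 0.9986 to 0.9992), and to Tfrc Atp13a3, Rab10 and Rrp8 (r from 0.9986 to 0.9994).

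**Figure D5:**
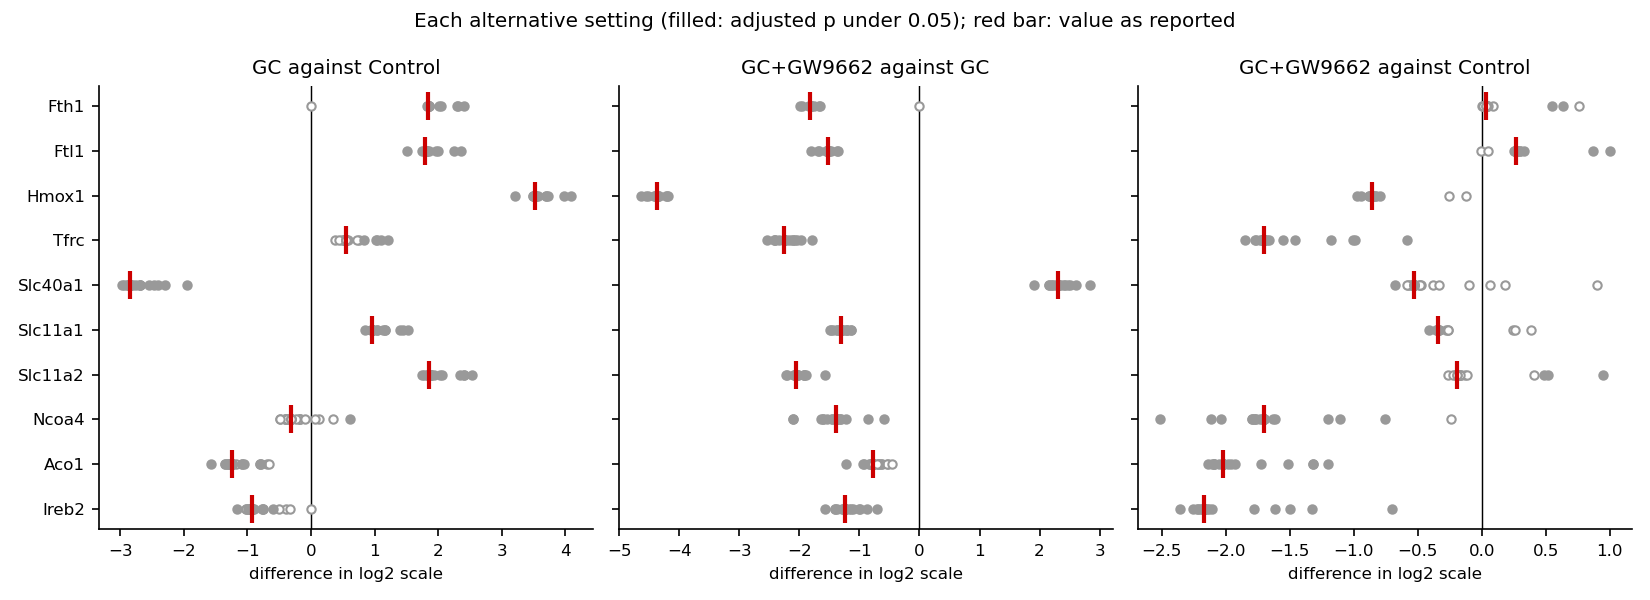
Change of each of the 10 genes under every alternative setting (grey points, filled where the adjusted p was under 0.05) beside the value as reported (red bar), in GC against Control, GC+GW9662 against GC and GC+GW9662 against Control, on log2 axes. Hmox1 ranged from 3.22 to 4.09 and Slc40a1 from -2.97 to -1.94 in the first panel, whereas points fall on both sides of 0 for Slc40a1, Slc11a1 and Slc11a2 in the last; the Fth1 points at 0 are quantile normalization.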

How the data were processed

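The deposited table gave TPM per gene for 8 libraries. Per the submitters' processing notes, fastp, HISAT2 2.1.0 and featureCounts were used; the build, the annotation and the order of steps are not given in the sources used here. Start and end matched GENCODE M21 (GRCm38) in 97.6% of 54232 rows. 27 symbols turned into dates were restored. Each gene's TPM steps gave whole reads for 26792 of 26812 genes above 0 (99.9%; within 0.02 reads, or 0.1 above 20000 TPM), hence estimated depths of 17433086 to 26515062 reads, which may be too low.

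Testing covered genes that reached 1 TPM in 2 or more libraries, on log2(TPM + 1) with limma 3.58.1 (R 4.3.3): group means over all 8 libraries, trended empirical Bayes, two-sided, Benjamini-Hochberg adjustment within each of 3 comparisons, threshold 0.05. Group shares and ratios were compared by exact permutation over libraries. In a test on simulated data for GC against Control (14985 genes), 80 of 100 genes changed by 2 on the log2 scale were recovered. Of 100 changed by 1, 36 were recovered, and 2 false calls were made. The simulation changed 200 genes, none among the lowest in level, with independent noise and no length trend. In the data 55.3% of tested genes passed in this comparison, and changes ran with length. The simulated counts therefore do not measure recovery or false calls in the data. The genes, lists and tests were chosen with earlier results of these data known. Named other genes are up to 5 higher and 5 lower per comparison with the smallest adjusted p at a group mean of at least 5 TPM. Fkbp5, Tsc22d3 and Pparg were named as a check of the labels. Hmox2, Pcbp1, Bach1, Nfe2l2, Keap1, Adipoq and Lep were added after their values were seen. Some genes under this rule are not reported here. Alternatives covered pseudocount, filter, scaling, prior, libraries, replicate block and copies; adding copies (85% identity over 200 bases and 50% of the copy) and limma voom on recovered reads were chosen after seeing the data.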

Additional observations from a re-analysis of the deposited data

How the results depend on the processing

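Over the alternatives run, Hmox1, Ftl1, Slc11a1, Slc11a2 and Slc40a1 kept direction and call in GC against Control and in GC+GW9662 against GC, as did Tfrc, Ireb2 and Ncoa4 in GC+GW9662 against GC and Tfrc, Aco1 and Ireb2 in GC+GW9662 against Control. Quantile normalization set Fth1 to 0, since it is the top gene of every library. The length trend was removed at the joined exon length, which was 3469 bases for Fth1, 9000 for Slc40a1 and 9365 for Ncoa4. The recovered lengths were 866, 3928 and 4733, and the trend was not removed at those. Where a result below changed, the cause was not tested.

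In GC against Control, the count of genes that fell was 1 in place of 3 with no filter, median-ratio scaling, the length trend removed or the compared groups alone, and 1 to 3 with 1 library left out (1 without Control 1 or Control 2). Ireb2 became 0.008 with the length trend removed. Ncoa4 turned positive, at 0.124 with median-ratio scaling, 0.339 with quantile normalization, 0.61 with the length trend removed, where it passed, and 0.071 by voom.

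In GC+GW9662 against Control, the count of genes that rose was 0 in place of 1 with a pseudocount of 5, no filter, a filter of 5 TPM, a constant prior or the replicate block by either number, 2 with median-ratio scaling, the length trend removed or voom, and 0 to 1 with 1 library left out (0 without Control 1, Control 2, GC 3, GC+GW9662 1 or GC+GW9662 3). Ftl1 became -0.007 with quantile normalization. With median-ratio scaling, the length trend removed and voom, Slc11a1 became 0.382, 0.246 and 0.259, Slc11a2 0.517, 0.95 and 0.409, and Slc40a1 0.184, 0.9 and 0.063; Slc11a2 was 0.488 with quantile normalization. With the length trend removed, Slc39a14 became 0.346 and Steap2 0.09, and neither call held (adjusted p = 0.0786 and 0.682).

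The ferritin share differed by 12.39 points in GC against Control, -11.99 in GC+GW9662 against GC and 0.394 in GC+GW9662 against Control (0.173 as reported) after rescaling without mitochondrial and top 20 genes, and by 10.97 and -10.79 in the first 2 with pseudogene rows added.

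Of all genes, median-ratio scaling put 4112 higher and 3970 lower in GC against Control, against 2428 and 5863 as reported, and 4507 higher and 4601 lower in GC+GW9662 against Control, against 2114 and 7284; it moved the all-gene median from -0.383 to 0.054. For the other iron and heme genes of GC+GW9662 against Control, the 15 higher became 36 with median-ratio scaling, 31 with quantile normalization or the length trend removed, 33 by voom, and 7 without Control 1 or Control 2.

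Deviations from the group means showed little correlation between libraries of equal replicate number (r = -0.10, -0.12 and 0.08 for numbers 1, 2 and 3 of GC+GW9662 and GC). With 3 libraries in a group, the deviations are tied to each other, so these values cannot show whether cultures were paired. The replicate block by title number gave 5 higher and 2 lower genes in GC against Control, ending the call of Ireb2, 1 higher and 8 lower in GC+GW9662 against GC, and 0 higher and 5 lower in GC+GW9662 against Control. Depth limits Ncoa4 most.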
